A study of Homo sapiens with 12 samples.

Results

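The 10 genes described here are sensors and effectors of double-stranded RNA, chosen by name from the 26364 genes of the count table as genes that may answer siRNA delivery. They are DDX58 (the current symbol is RIGI), IFIH1, DHX58, TLR3, MAVS, EIF2AK2, ADAR, OAS1, OAS2 and OAS3. These genes were chosen with earlier results of these data known. Counts of called members beside the share of all tested genes are thus descriptions and not independent evidence. All 10 passed the filter on low counts, as did 14297 genes in all. RNA was sequenced from A2058, an established human melanoma line, in 4 groups of 3 libraries labelled as biological replicates 1 to 3. Cells of the empty vector group carried an empty lentiviral LVX vector, and those of the MITF vector group carried the same vector with MITF, the master transcription factor of the melanocyte lineage; both were selected with puromycin. Cells of the other groups were transfected for 48 hours with a siRNA against MITF or with a scrambled siRNA, by lipofection. No siRNA group was transduced and no vector group was lipofected, so a difference between the delivery methods cannot be told apart from lentivirus, puromycin or lipofection themselves. p-values measure the spread between these cultures of a single line.

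Long double-stranded RNA is a molecular sign of viral replication. In the cytosol DDX58 (RIG-I) and IFIH1 (MDA5) are helicases that bind it and pass a signal to MAVS on mitochondria, with DHX58 (LGP2) as another helicase that lacks the signalling domains and regulates the others. TLR3 senses double-stranded RNA in endosomes. The MAVS and TLR3 routes lead to interferon, whose receptors act through JAK-STAT signalling to switch on interferon-stimulated genes, among them most of the sensors. EIF2AK2 (PKR) halts translation by phosphorylating eIF2 alpha, OAS1, OAS2 and OAS3 make 2'-5' oligoadenylates, and ADAR edits adenosine to inosine in double-stranded RNA, which keeps the cell's own RNA from being sensed. siRNA duplexes are themselves short double-stranded RNA.

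Factors activated by interferon bind interferon-stimulated response elements, and the promoters of the members that hold the core of such an element are shown here because most members were higher with either siRNA. RefSeq promoters (GRCh38.p14, 250 bases before to 50 after the start) were matched for 8 of the 10 genes. On either strand, GAAANNGAAA was present in 4 of 8 (IFIH1, TLR3, EIF2AK2 and OAS3), against 3.57% of 35116 promoters of the same length. The variant with 1 base between the repeats, GAAANGAAA, was searched after the first motif's matches had been seen, and was present in 3 of 8 (DDX58, OAS1 and OAS3), against 3.12%. Either spacing was present in 6 of 8, against 6.4%; ADAR and MAVS held neither. The gamma-activated site core TTCNNNGAA was in OAS1 and TLR3 (7.66% of all promoters). Of the motifs that MITF is known to bind, the E-box CACGTG was in ADAR and EIF2AK2 (7.26%), and the M-box TCATGTG in none of the 8 (2.92%). The windows are printed 5′ to 3′ on the gene's strand, with capitals for the response-element matches on either strand, which can overlap.
DDX58, chr9:32526371-32526419, minus strand: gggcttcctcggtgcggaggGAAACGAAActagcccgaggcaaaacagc
IFIH1, chr2:162318808-162318863, minus strand: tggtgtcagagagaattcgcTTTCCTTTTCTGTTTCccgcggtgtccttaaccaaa
IFIH1, chr2:162318685-162318725, minus strand: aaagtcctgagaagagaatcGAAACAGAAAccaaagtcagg
TLR3, chr4:186069132-186069161, plus strand: cattttttttcaagctttacTTTCACTTTC
EIF2AK2, chr2:37156977-37157006, minus strand: gggaaggcggagtccaagggGAAAACGAAA
OAS1, chr12:112906925-112906961, plus strand: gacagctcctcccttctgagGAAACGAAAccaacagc
OAS3, chr12:112938306-112938360, plus strand: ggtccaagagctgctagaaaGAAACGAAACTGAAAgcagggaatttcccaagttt
OAS3, chr12:112938442-112938473, plus strand: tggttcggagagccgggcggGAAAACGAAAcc
A match describes letters in a window and not a bound site, and the files hold no binding data.

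Total counts ran from 7427637 to 23938392 per library. Levels are given in CPM, read counts scaled to the size of the library after TMM normalization. MITF itself was at 299 to 311.4 CPM in empty vector cells, 632.9 to 679.5 in MITF vector cells, 321.9 to 364.6 in MITF siRNA cells and 430.6 to 504.2 in scrambled siRNA cells, so both manipulations moved it in the labelled direction against their own controls. The control groups also differed: scrambled siRNA cells had more MITF than empty vector cells (log2 fold change 0.62, adjusted p = 3.17e-11, edgeR's quasi-likelihood test), which stands beside every control comparison below. All 10 melanocyte lineage markers exceeded 1 CPM on average in every group. The summed level of 14 leukocyte markers was 13.01 to 27.5 CPM, with 7 or 8 of them at 0 counts in each group; fibroblast and endothelial markers summed to 18.8 to 36.4 CPM and epithelial markers to 27.2 to 58.6 CPM. Some markers also differed between the siRNA groups and the empty vector group. Of the 10 melanocyte markers, 7 were called higher and 2 lower with scrambled siRNA than in empty vector cells, and 6 higher and 1 lower with MITF siRNA. Of the 3 leukocyte markers that could be tested, 2 were higher with scrambled siRNA (LYZ 0.82 and ITGAM 0.96) and 3 with MITF siRNA (LYZ 1.68, ITGAM 1.26 and CD68 0.38). CD3E, CD3D, CD2, MS4A1 and CD163 had 0 reads in every library, and PTPRC, the pan-leukocyte marker, had 1 read in empty vector cells, 5 in MITF vector cells, 12 in scrambled siRNA cells and 14 in MITF siRNA cells, over 3 libraries each. Of the 5 fibroblast and endothelial markers tested, 1 was higher with scrambled siRNA (PDGFRA 1.18) and 1 lower (LUM -0.73). With MITF siRNA 3 were higher, including PDGFRA (1.59), and 2 lower (LUM -0.64 and KDR -0.78). What part these marker differences had in the results on the members was not tested. In bulk RNA, more cells that express a gene and more RNA per cell cannot be told apart.

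The members were expressed at very different levels before any comparison. Per kilobase of annotated exon (GENCODE v29), ADAR was the most abundant in every group, at 59.2 ± 0.562 CPM per kb (SD, n = 3) with the empty vector. MAVS followed at 13.7 ± 0.236 and EIF2AK2 at 7.24 ± 0.887 CPM per kb, and these 3 ranks were the same in all 4 groups. IFIH1 (4.70 ± 0.421) and DDX58 (4.30 ± 0.233) came next in the empty vector group and did not differ beyond their spread. OAS3 (1.88 ± 0.211), DHX58 (1.64 ± 0.0951) and TLR3 (1.41 ± 0.104) lay close together. OAS1 stood at 0.720 ± 0.141 and OAS2 last at 0.0436 ± 0.0214 CPM per kb. With either siRNA the bottom of this order changed: TLR3 became the least abundant member, at 1.17 ± 0.0573 CPM per kb with MITF siRNA and 1.499 ± 0.0748 with scrambled siRNA, while OAS2 was at 2.13 ± 0.307 and 3.86 ± 3.47.

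**Figure D1:**
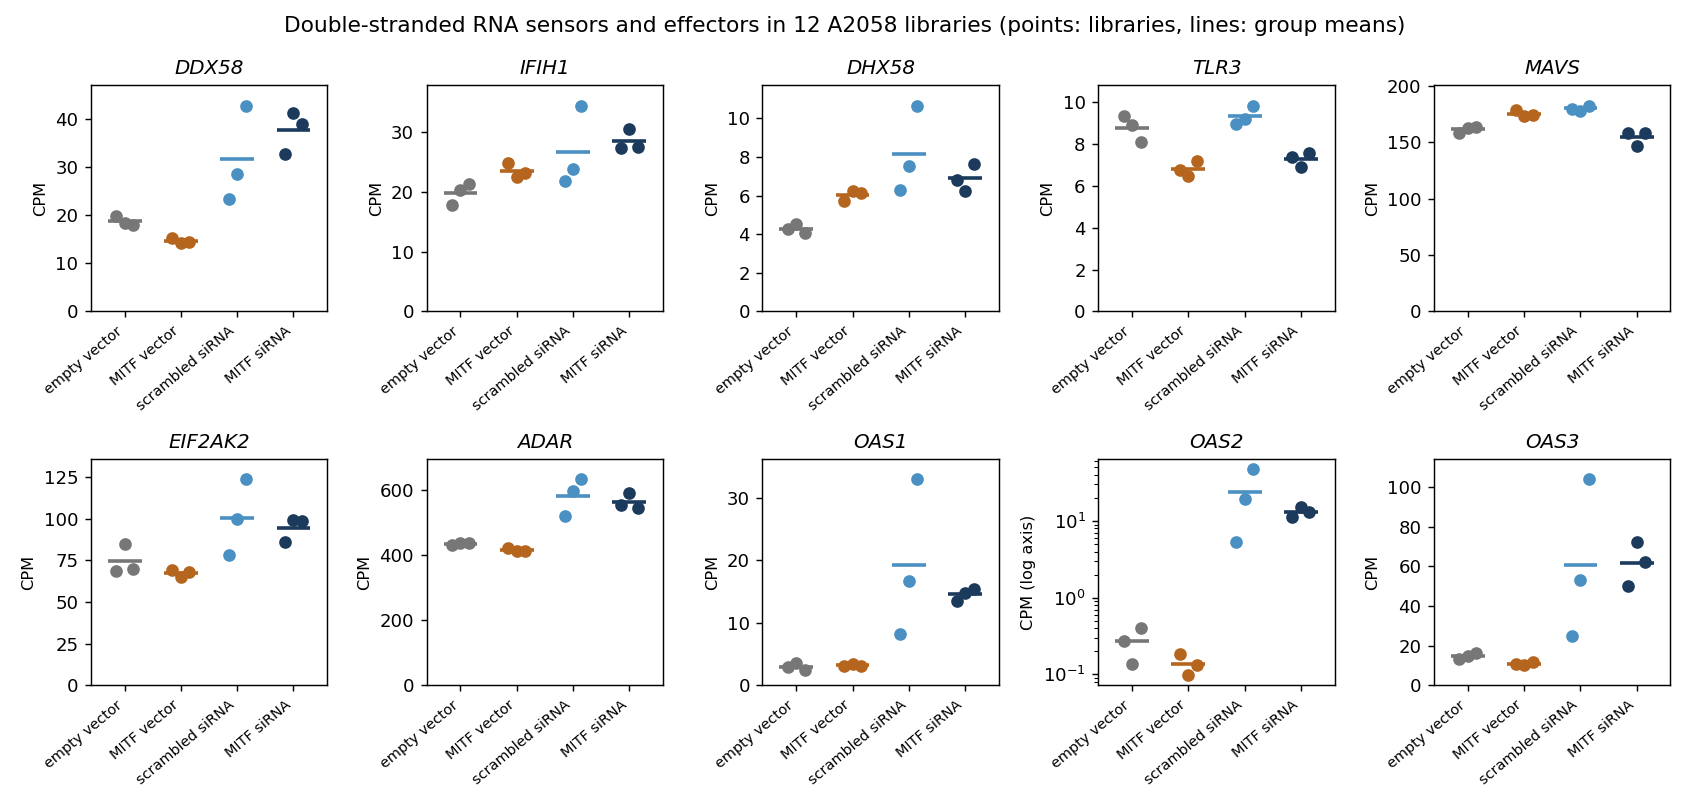
Each panel is 1 gene, with the level in CPM of every library (points) and the group mean (line) in the 4 groups; only OAS2 has a logarithmic axis. The 3 OAS genes, ADAR, DDX58 and, narrowly, DHX58 stand higher in all 6 siRNA libraries than in any vector library. How many of all tested genes separate in this way was not counted. The scrambled siRNA libraries spread the widest for most members.

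Between the control groups, scrambled siRNA against empty vector, 8 of the 10 members were called higher and 0 lower, where 18.9% of all 14297 tested genes were called higher and 19.6% lower. A call is an adjusted p under 0.05 in edgeR's quasi-likelihood test fitted on all 12 libraries. No member was lower at an unadjusted p under 0.05 either, and DESeq2 and limma-voom also called 0 lower. The median log2 fold change of the members was 0.60, against -0.00023 over all tested genes. With MITF siRNA against the empty vector, 7 were called higher and 0 lower, against backgrounds of 21.8% and 20.8%, and the median was 0.62 against 0.0042 over all genes. At an unadjusted p under 0.05, TLR3 alone was lower there (adjusted p = 0.0578, edgeR), and limma-voom called it lower. Both comparisons use the same empty vector libraries, so they are not independent of each other.

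The OAS genes, the oligoadenylate synthetases, showed the largest differences. OAS2 was at 0.275, 0.138 and 0.404 CPM in empty vector cells and at 0.182, 0.0980 and 0.132 CPM in MITF vector cells, which is 1 to 4 reads per library. It was at 5.28, 19.2 and 47.8 CPM in scrambled siRNA replicates 1, 2 and 3 and 11.4, 15.2 and 13.3 CPM with MITF siRNA. Every siRNA library was above every vector library. The share of all tested genes whose groups separate without overlap was not counted, here or for the genes and comparisons below. The fitted log2 fold change against the empty vector was 6.37 ± 1.33 (SE) with scrambled siRNA (82.9-fold, adjusted p = 0.00525, edgeR) and 5.51 ± 1.46 with MITF siRNA (45.7-fold, adjusted p = 0.0149). In each comparison OAS2 ranked 4 among all tested genes by fold change; with 9 reads in the empty vector group in all, the size of these folds is poorly fixed.

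OAS1 was at 2.89, 3.58 and 2.43 CPM in empty vector cells and at 3.05, 3.43 and 3.04 CPM in MITF vector cells. It reached 8.19, 16.7 and 32.9 CPM with scrambled siRNA and 13.5, 14.7 and 15.4 CPM with MITF siRNA. The siRNA and vector libraries did not overlap, and the fitted differences from the empty vector were 2.73 ± 0.574 (adjusted p = 0.00547, edgeR) and 2.32 ± 0.580 (adjusted p = 0.0114) on the log2 scale. OAS3, the largest of the synthetases and the most abundant of them here per kilobase, was at 13.1, 14.9 and 16.4 CPM in empty vector cells and at 10.8, 10.4 and 11.5 CPM in MITF vector cells. With scrambled siRNA it was at 25.0, 53.0 and 104 CPM, and with MITF siRNA at 50.0, 72.5 and 62.2 CPM. It too was above all vector libraries in each siRNA library (2.06 ± 0.528, adjusted p = 0.0146, and 2.08 ± 0.516, adjusted p = 0.0110). The OAS genes are neighbours on chromosome 12, in the order OAS1, OAS3, OAS2, and are related in sequence, and the treatment in counting of reads that match more than 1 gene was not stated.

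ADAR, the editing enzyme, had the smallest adjusted p of the members in both comparisons with the empty vector. It was at 430.0, 436 and 438 CPM in empty vector cells, at 421, 414 and 413 CPM in MITF vector cells, at 519, 596 and 633 CPM in scrambled siRNA cells and at 555, 590.0 and 543 CPM in MITF siRNA cells. All siRNA libraries were above all vector libraries, by 0.42 ± 0.0515 on the log2 scale with scrambled siRNA (adjusted p = 1.01e-07, edgeR) and 0.37 ± 0.0513 with MITF siRNA (adjusted p = 6.13e-07). Counts per gene do not separate the constitutive form of ADAR from the longer form that interferon is known to induce.

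Among the cytosolic helicases, DDX58 was at 19.9, 18.3 and 18.0 CPM in empty vector cells, at 15.3, 14.2 and 14.4 CPM in MITF vector cells, at 23.4, 28.5 and 42.7 CPM in scrambled siRNA cells and at 32.7, 41.2 and 38.9 CPM in MITF siRNA cells. Its siRNA libraries lay above all vector libraries (0.74 ± 0.222, adjusted p = 0.0283 with scrambled siRNA, and 1.00 ± 0.211, adjusted p = 0.00464 with MITF siRNA, edgeR). DHX58, the regulatory helicase, was at 4.27, 4.54 and 4.04 CPM in empty vector cells, at 5.75, 6.22 and 6.14 in MITF vector cells, at 6.27, 7.52 and 10.7 in scrambled siRNA cells and at 6.80, 6.26 and 7.64 CPM in MITF siRNA cells. Here the empty vector libraries were the lowest, and the highest MITF vector library (6.22) was only just below the lowest siRNA libraries (6.26 and 6.27). Against the empty vector, scrambled siRNA was 0.94 ± 0.172 higher (adjusted p = 4.38e-05, edgeR) and MITF siRNA 0.70 ± 0.168 higher (adjusted p = 0.000918). IFIH1 was at 17.8, 20.4 and 21.2 CPM in empty vector cells, at 24.8, 22.5 and 23.2 in MITF vector cells, at 21.7, 23.8 and 34.4 in scrambled siRNA cells and at 27.4, 30.5 and 27.4 CPM in MITF siRNA cells. Its lowest scrambled siRNA library was close to the highest empty vector library, and the calls were the weakest of the helicases (0.44 ± 0.156, adjusted p = 0.0421, and 0.54 ± 0.149, adjusted p = 0.0122, edgeR).

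EIF2AK2, the kinase PKR, was at 68.5, 84.9 and 69.8 CPM in empty vector cells, at 69.0, 64.8 and 67.7 in MITF vector cells, at 77.9, 99.5 and 124 in scrambled siRNA cells and at 85.8, 99.4 and 98.3 CPM in MITF siRNA cells. The lowest scrambled siRNA library lay below the highest empty vector library, and neither difference was called (0.45 ± 0.164, adjusted p = 0.0629, and 0.36 ± 0.161, adjusted p = 0.108, edgeR). DESeq2 (adjusted p = 0.0231) and limma-voom (adjusted p = 0.00428) called the first, and limma-voom called the second (adjusted p = 0.00941). Exons of EIF2AK2 overlap those of AC007899.1 on the opposite strand over 401 bases, or 3.90% of their length, and the use of strand in counting was not stated.

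TLR3, the endosomal receptor, and MAVS, the mitochondrial adaptor, did not go with the other members. TLR3 was at 9.36, 8.95 and 8.09 CPM in empty vector cells, at 6.75, 6.47 and 7.19 in MITF vector cells, at 8.95, 9.20 and 9.85 in scrambled siRNA cells and at 7.37, 6.90 and 7.60 CPM in MITF siRNA cells. It was not called between the control groups (0.08 ± 0.120, adjusted p = 0.646, edgeR; 95% interval -0.16 to 0.31). MAVS was at 158, 163 and 163 CPM in empty vector cells, at 178, 174 and 174 in MITF vector cells, at 180, 177 and 182 in scrambled siRNA cells and at 158, 147 and 158 CPM in MITF siRNA cells. It was 0.16 ± 0.0445 higher with scrambled siRNA (adjusted p = 0.00485, edgeR) and not called with MITF siRNA (-0.06 ± 0.0442, adjusted p = 0.253), each against the empty vector.

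**Figure D2:**
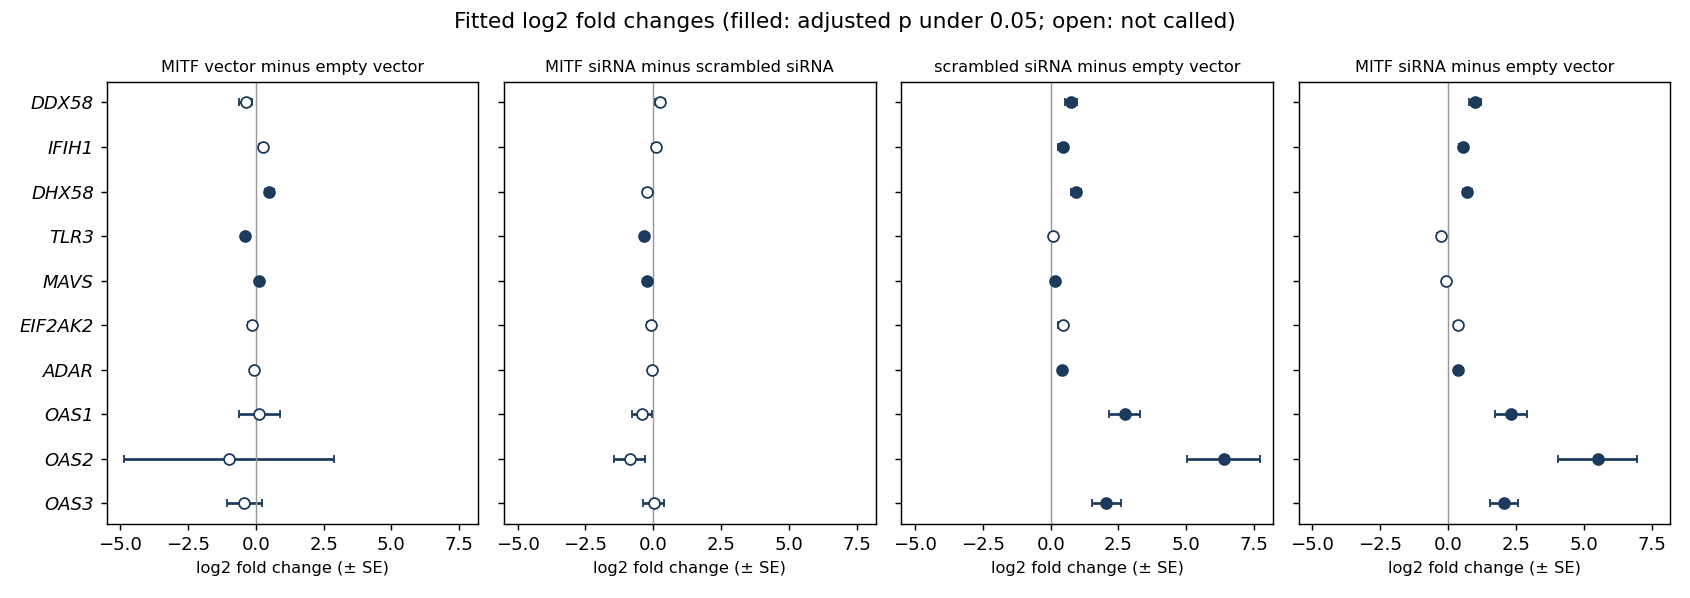
Fitted log2 fold changes (points) with their standard errors (bars) for the 10 members in 4 comparisons; filled points had an adjusted p under 0.05. In both comparisons with the empty vector the 3 OAS genes lie far to the right of the other members, and no member exceeds a 2-fold higher level in the MITF vector or MITF siRNA comparisons with their own controls.

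The scrambled siRNA libraries differed among themselves in these genes more than in others. Replicate 3 was the highest of its group for all 10 members and replicate 1 the lowest for 9. The median SD of log2 CPM over the members was 0.366 in this group against 0.0872 over all tested genes, while it was 0.106 against 0.0871 with MITF siRNA, 0.119 against 0.0965 with the empty vector and 0.0648 against 0.0681 with the MITF vector. The highest and lowest scrambled siRNA libraries differed 9.05-fold in OAS2, 4.16-fold in OAS3, 4.02-fold in OAS1 and 1.83-fold in DDX58, but 1.22-fold in ADAR, 1.1-fold in TLR3 and 1.03-fold in MAVS. MITF was highest in replicate 1 and lowest in replicate 3 of this group, at 504.2 and 430.6 CPM. Total counts of these libraries were alike, at 13100703, 14287537 and 13618880, and what else differed between them was not tested.

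When only the empty vector and scrambled siRNA libraries entered the fit, 3 members (ADAR, DHX58 and MAVS) were called higher in place of 8. That fit called 5335 of 13656 tested genes in either direction. The fold changes hardly moved, but the adjusted p became 0.0558 for OAS2, 0.0575 for OAS1, 0.0895 for OAS3, 0.106 for DDX58 and 0.127 for IFIH1 (edgeR). With MITF siRNA, whose libraries were closer together, the same restriction gave 8 called higher in place of 7, with EIF2AK2 added. There 5683 of 13902 tested genes were called in either direction. Without empty vector replicate 1, the deepest library of its group, 5 members were called higher with scrambled siRNA and 3 (ADAR, DHX58 and DDX58) with MITF siRNA. Of 14537 genes tested without that library, 4622 and 5383 were called in either direction. Without scrambled siRNA replicate 3, IFIH1 was no longer called between the controls (adjusted p = 0.0697) and the other 7 stayed called. IFIH1 lost its call without any 1 of 7 of the 12 libraries, and DDX58 without any 1 of the 3 empty vector libraries (adjusted p = 0.0687 to 0.0806, edgeR). ADAR, DHX58 and MAVS were called higher between the controls under all of the alternatives tried.

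**Figure D3:**
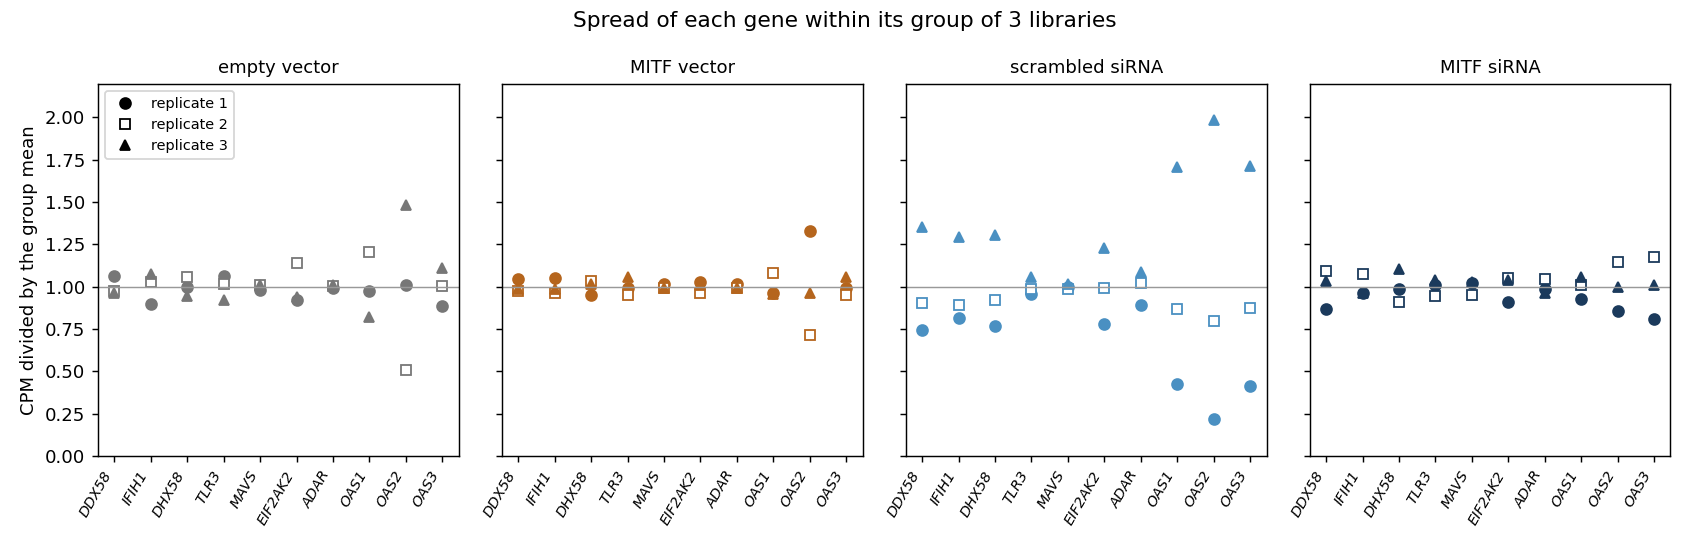
For each member, the CPM of each library divided by the mean of its group of 3; circles, squares and triangles are replicates 1, 2 and 3. In the scrambled siRNA group replicate 3 lies above the mean for all 10 members, up to 1.98 times for OAS2, while TLR3 and MAVS stay close to 1 in all groups and OAS2 also spreads at its low counts in the vector groups.

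Overexpression of MITF, against the empty vector, gave 2 members called higher, 1 lower and 7 not called, against 28.6% of all tested genes called higher and 30.8% lower, so the members' shares were not above the background. DHX58 was 0.50 ± 0.173 higher (adjusted p = 0.0135, edgeR) and MAVS 0.12 ± 0.0440 higher (adjusted p = 0.0177), in both cases with all 3 MITF vector libraries above all empty vector libraries. TLR3 was 0.38 ± 0.120 lower, again without overlap (adjusted p = 0.00641). All 3 of these calls were lost without empty vector replicate 1, with adjusted p of 0.0511, 0.0895 and 0.0609 in that order, and that of MAVS also without MITF vector replicate 1 (adjusted p = 0.0809). For the OAS genes the intervals were wide, for OAS2 -8.57 to 6.59 on the log2 scale, so that this comparison leaves the size and direction of any OAS2 difference unresolved; why the interval is so wide was not tested. With only the vector groups in the fit, DDX58 (-0.36, adjusted p = 0.000448) and OAS3 (-0.42, adjusted p = 0.00048) were also called lower and IFIH1 (0.27, adjusted p = 0.00457) higher. That fit called 8741 of 13963 tested genes in either direction.

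Knockdown of MITF, against scrambled siRNA, holds the delivery method fixed. In it 0 members were called higher and 2 lower, against 18.7% and 16.7% of all tested genes. No member was higher at an unadjusted p under 0.05, nor by DESeq2 or limma-voom. MAVS fell by 0.22 ± 0.0431 on the log2 scale (adjusted p = 0.000105, edgeR) and TLR3 fell by 0.35 ± 0.111 (adjusted p = 0.0116), both with no overlap between the groups. The OAS genes did not pass, and their intervals left room for sizeable differences: -1.16 to 0.34 for OAS1, -1.98 to 0.26 for OAS2 and -0.76 to 0.80 for OAS3. This comparison turned on single scrambled siRNA libraries. Without replicate 1, 6 members were called lower (ADAR, OAS1, OAS2, DHX58, MAVS and TLR3), and without replicate 3, DDX58 (0.52, adjusted p = 4.04e-05) and IFIH1 (0.31, adjusted p = 0.00586) were called higher. These fits called 4689 of 14555 and 4243 of 14536 tested genes, in either direction.

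The difference between the MITF vector response and the MITF siRNA response was itself tested, and 2 members were called higher and 0 lower, against 27.1% and 29.8% of all tested genes. No member was lower at an unadjusted p under 0.05, although limma-voom called DDX58 lower. For MAVS the responses had opposite signs and their difference was 0.34 ± 0.0616 (adjusted p = 1.36e-05, edgeR). For DHX58 it was 0.73 ± 0.222 (adjusted p = 0.00551), from a response of 0.50 to the vector and -0.23 to the siRNA, of which the latter was not called. For TLR3, called lower in both, the difference was -0.03 ± 0.163 (adjusted p = 0.892; 95% interval -0.35 to 0.29).

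A list chosen with earlier results of these data known, and without the 10 members, followed the wider interferon response in 58 tested interferon-stimulated genes. Of these, 46 were called higher and 3 lower with scrambled siRNA against the empty vector, with a median log2 fold change of 0.73, and 40 were called higher and 2 lower with MITF siRNA, with a median of 0.58. With the MITF vector 9 were higher and 8 lower, and in the knockdown comparison 4 were higher and 7 lower, below the backgrounds given above. These last counts varied: with only the vector groups in the fit 25 were higher and 13 lower with the MITF vector, and 19 and 14 without scrambled siRNA replicate 3. In the knockdown comparison 24 were lower without scrambled siRNA replicate 1 and 14 higher without replicate 3. By the smallest adjusted p in the control comparison, IFI35 was 1.07 ± 0.101 higher (adjusted p = 1.58e-07, edgeR). HERC5, which attaches ISG15 to proteins, was 0.54 ± 0.0708 higher, and with the MITF vector 0.66 ± 0.0686 higher. IFITM2, which blocks viral entry, was 0.70 ± 0.0976 higher, and UBA7, the activating enzyme for ISG15, 0.91 ± 0.121. With the MITF vector the means of IFI35 and UBA7 were 41.1 and 18.2 CPM, against 25.7 and 12.3 with the empty vector. Ranking by adjusted p does not pick the largest differences. MX1, named below, had means of 2.67 CPM with the empty vector, 3.64 with the MITF vector and 24.7 ± 15.6 (SD) with scrambled siRNA. With MITF siRNA the leading genes were IFIT2, which binds viral RNA (1.28 ± 0.127), SHISA5 (0.49 ± 0.0533), IFITM2 (0.69 ± 0.0941) and IFI35 (0.84 ± 0.0999). The count of higher genes in the control comparison was 33 with only the compared groups in the fit, 37 without empty vector replicate 1 and 42 without scrambled siRNA replicate 3.

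Of 25 listed interferon ligands, receptors and JAK-STAT genes, 15 were tested. IFNA1, IFNA2, IFNG, IFNL2 and IFNL3 had 0 counts in every library, where 3 reads, the limit that a count of 0 allows, correspond to between 0.127 and 0.413 CPM. IFNB1 had 3 reads in the empty vector group, 1 with MITF siRNA and 0 in the others, and IFNL1 had 1 read in all, in a scrambled siRNA library; IFNE had 1 to 7 and IFNK 5 to 26 reads per group. These ligands are named for their role, outside the rule for named genes. Of the ligands listed, those other than IFNE and IFNK thus had at most a few reads; further alpha interferon genes were not on the list. Of the tested genes 5 were higher and 5 lower with scrambled siRNA, led by JAK2, a receptor kinase (0.74 ± 0.0751), SOCS3, a feedback inhibitor (-0.45 ± 0.0785), STAT2 (0.77 ± 0.103) and the interferon lambda receptor IFNLR1 (-1.96 ± 0.419), which had 16 reads in the scrambled siRNA group. With MITF siRNA 8 were higher and 5 lower, led by JAK1 (-0.56 ± 0.0498) and the interferon gamma receptor IFNGR1 (-0.67 ± 0.0685). JAK2 and SOCS3 also differed with the MITF vector (1.425 ± 0.07 and -1.11 ± 0.0799).

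Calls among the signalling genes between sensor and interferon were divided between the directions. Of 34 cofactors of the RIG-I-like receptors and of MAVS signalling, 6 were higher and 7 lower with scrambled siRNA and 8 higher and 12 lower with MITF siRNA, against the empty vector. With scrambled siRNA these shares are near those of all tested genes (18.9% higher and 19.6% lower; 21.8% and 20.8% with MITF siRNA); the same shares apply to the lists below. TRIM25, a ubiquitin ligase that activates RIG-I, was 0.74 ± 0.0840 higher with scrambled siRNA (adjusted p = 7.38e-06, edgeR). Its mean was 163 CPM with the MITF vector, against 93.3 with the empty vector and 155 with scrambled siRNA. RNF125, a ligase that marks RIG-I for degradation, was 0.36 ± 0.0520 higher with scrambled siRNA and 0.46 ± 0.0508 higher with MITF siRNA. NFKB1, an NF-kappa-B subunit, was lower in both (-0.56 ± 0.0480 and -0.44 ± 0.0471), and also with the MITF vector (-0.87 ± 0.0479). Of 9 tested genes of the TLR3 pathway and endosomal receptors, 2 were higher and 1 lower with scrambled siRNA and 4 higher and 3 lower with MITF siRNA; SIDT2, a lysosomal transporter of nucleic acids, was 0.27 ± 0.0807 and 0.27 ± 0.0777 higher.

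Of 15 genes of the RNA interference machinery, which takes up siRNA, 7 were higher and 3 lower with scrambled siRNA, and 6 were higher and 2 lower with MITF siRNA. With the MITF vector 8 were higher and 2 lower, where 28.6% of all tested genes were higher. DICER1, which cuts double-stranded RNA, was 0.52 ± 0.0472 higher with scrambled siRNA, and TNRC6B, a silencing cofactor of Argonaute, 0.52 ± 0.0527. With MITF siRNA they were 0.14 (adjusted p = 0.0139, edgeR) and 0.16 (adjusted p = 0.0151) higher than with the empty vector, and both were lower than with scrambled siRNA (-0.37 ± 0.0457 and -0.37 ± 0.0497). AGO2, the Argonaute that cleaves targets, was 0.38 ± 0.0617 higher with scrambled siRNA and 0.61 ± 0.0595 with MITF siRNA. With the MITF vector TNRC6B was 0.68 ± 0.0517 and AGO4 0.86 ± 0.0692 higher than with the empty vector.

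Of 25 other tested genes listed for binding double-stranded RNA, 4 were higher and 8 lower with scrambled siRNA, and 5 were higher and 9 lower with MITF siRNA. DHX33 (0.60 ± 0.0582) and DDX60L (0.74 ± 0.114) rose with scrambled siRNA, and STRBP fell by 0.67 ± 0.0752 with MITF siRNA. With the MITF vector DHX33 was 0.55 ± 0.0574 higher, and DDX60L had a mean of 46.6 CPM against 27.1 with the empty vector. Of 25 genes downstream of PKR and the OAS enzymes, 2 were higher and 9 lower with scrambled siRNA, and 3 were higher and 6 lower with MITF siRNA. EIF2S2, the beta subunit of eIF2, fell by 0.31 ± 0.0455 and 0.48 ± 0.0451 in them. G3BP2, a stress granule protein, was lower with scrambled siRNA (-0.44 ± 0.0611) and higher with MITF siRNA (0.48 ± 0.0601). Of 23 genes that limit the cell's own double-stranded RNA, 6 were higher and 6 lower and then 8 and 5, and of 9 tested genes of cytosolic DNA sensing 1 and 1 and then 2 and 3. STING1, listed as TMEM173 and the adaptor of DNA sensing, was 0.29 ± 0.0819 and 0.28 ± 0.0787 higher. With the MITF vector STING1 was 0.69 ± 0.0767 higher.

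**Figure D4:**
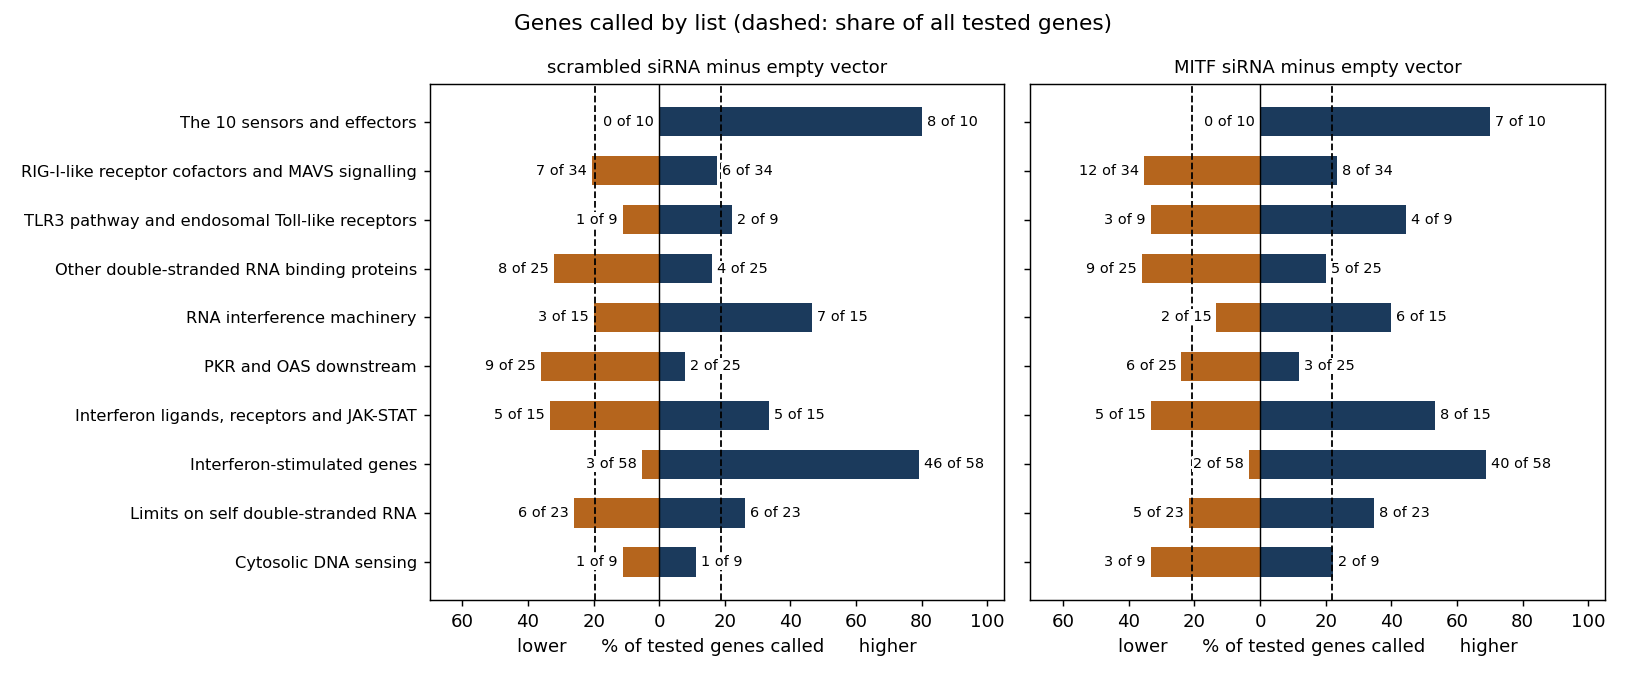
Share of the tested genes in each list called higher (bars to the right) or lower (bars to the left) against the empty vector, with scrambled siRNA and MITF siRNA; dashed lines give the share of all tested genes. The 10 members, with 8 and 7 called higher, and the interferon-stimulated genes, with 46 and 40 of 58, reach furthest to the right.

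The genes whose log2 CPM followed each member closely over the 12 libraries included other members and several interferon-stimulated genes. These correlations are descriptions over libraries that fall into groups, and they share the differences between the groups. ADAR and OAS2 were nearest to each other (Pearson's r = 0.990), each with HLA-C, a class I antigen-presenting molecule, as the next (0.984 and 0.987). OAS1 went with the antiviral GTPase MX1 (0.986) and XAF1 (0.984), OAS3 with DDX58 (0.978) and XAF1 (0.978), and DDX58 with IFI44L (0.986) and SAMHD1, a nucleotide phosphohydrolase (0.981). DHX58 went with STAT2 (0.973) and PARP10 (0.956), EIF2AK2 with CMPK2 (0.943), and IFIH1 with ZNFX1 (0.925) and SAMD9 (0.922). TLR3 went with SLCO3A1 (0.943) and PITPNC1 (0.943), and MAVS with KIAA1549 (0.974) and PIK3C2A (0.971). Among the members themselves, DDX58, EIF2AK2, ADAR and the OAS genes correlated at 0.886 to 0.990, and DHX58 and IFIH1 with these at 0.640 to 0.853. TLR3 reached at most 0.428 and MAVS at most 0.372 with any other member.

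These nearest genes were picked by correlation over the same 12 libraries, so group differences like those of their member follow from the choice. Of them, MX1 was 3.19 higher on the log2 scale with scrambled siRNA (adjusted p = 0.00334, edgeR) and 3.04 with MITF siRNA (adjusted p = 0.00344) than with the empty vector. HLA-C was 1.18 and 1.19 higher, STAT2 0.77 and 0.59, SAMHD1 0.94 and 1.44 and IFI44L 2.02 and 2.38, all called. With the MITF vector, STAT2 was 0.40 higher (adjusted p = 0.00539, edgeR) and PARP10 0.34 higher (adjusted p = 0.0151), as was DHX58, to which they were nearest. PIK3C2A was 0.23 higher with the MITF vector and fell by 0.50 in the knockdown comparison, and KIAA1549 was 0.42 higher and fell by 0.70, as MAVS did on a smaller scale. SLCO3A1, nearest to TLR3, was lower in both (-0.44 and -0.52).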

How the data were processed

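Per the labels' protocols, stranded total RNA libraries of 12 A2058 cultures were sequenced as paired reads of 76 bases. The tools listed in the submitters' processing notes are featureCounts 1.6.3, SAMtools 1.10, STAR 2.6.0 and bcl2fastq 2.18.0, with the build hg19. Their settings, strand use and handling of multiply matching reads are not given here by any source used. The authors deposited raw counts, as whole numbers without normalization, for 26364 symbols. Columns named as negative siRNA were taken as the scrambled siRNA libraries, the only siRNA control.

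Genes were filtered with filterByExpr (minimum count 10), scaled by TMM, and fitted as group means over all 12 libraries with edgeR 4.0.16's robust quasi-likelihood test (limma 3.58.1, R 4.3.3). p-values were adjusted by Benjamini-Hochberg over 14297 genes and called under 0.05. The standard error is the log2 fold change divided by the square root of F, and log2 CPM for correlations has a prior count of 2. Alternatives were RLE size factors, DESeq2 1.42.0, limma-voom, no filter, a replicate block, only the groups compared, and leaving out each library. The steps were tested on simulated counts. Named genes are the 10 members, up to 4 called genes per list by adjusted p, of which the text gives a part, and the 2 nearest patterns per member; those named for their role are marked. Some genes that these rules name are not reported here. The members and lists were chosen with earlier results of these data known. Floors and spreads do not separate technical from biological error in reads without molecular identifiers. Exon lengths come from GENCODE v29 and promoters from RefSeq, both on GRCh38, not the authors' build.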

Additional observations from a re-analysis of the deposited data

Results flagged for a closer look

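For 2 members the response to the MITF vector differed from the response to MITF siRNA, by a test of the difference itself. This is 2 of 10 called higher and 0 lower, where 27.1% of all tested genes were called higher and 29.8% lower, so the count is not above the background. The difference was 0.73 on the log2 scale for DHX58 (adjusted p = 0.00551, edgeR) and 0.34 for MAVS (adjusted p = 1.36e-05). DHX58 was higher in 3 of 3 MITF vector libraries than in any empty vector library, whereas its MITF siRNA and scrambled siRNA libraries overlapped. MAVS was higher in 3 of 3 MITF vector libraries and lower in 3 of 3 MITF siRNA libraries than in any library of the control. The scrambled siRNA libraries spread widely in DHX58 (SD of log2 CPM 0.383) and little in MAVS (0.0201), and the part of that spread in the result was not tested.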

How the results depend on the processing

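Over all alternatives, 840 of the values for single members kept their side of the threshold, and 24 lost and 25 gained a call. Of the values called in either fit, 0 reversed direction. Values called in neither fit were counted among the 840 even where their direction changed. With only the groups compared in the fit, 3 members (in place of 8) were higher in scrambled siRNA cells than in empty vector cells, and 3 (in place of 1) were lower with the MITF vector, with fewer samples and another estimate of the spread. With limma-voom, 1 member was lower with MITF siRNA than with the empty vector (TLR3) and 1 in the difference of responses (DDX58), in place of 0 each; the cause was not tested. Leaving out 1 library at a time gave 0 to 3 members higher and 0 to 2 lower with the MITF vector, 0 to 2 higher and 2 to 6 lower in the knockdown comparison, 5 to 9 higher with scrambled siRNA, 3 to 8 higher and 0 to 1 lower with MITF siRNA against the empty vector, and 0 to 1 lower in the difference of responses. Deviations of same-numbered libraries correlated at -0.0712 to 0.0643 and those of different-numbered ones at -0.0855 to 0.0794, so no pairing by number was detected. With the replicate block the members higher and lower were 2 and 1 (MITF vector), 0 and 2 (knockdown), 8 and 0 (scrambled siRNA), 7 and 0 (MITF siRNA against the empty vector) and 2 and 0 (difference), so the block changed no count. The OAS2 level rests on only 9 reads in the empty vector group and 8 in the MITF vector group.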
